A study of Mus musculus with 6 samples.

Results

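HOX genes encode homeodomain transcription factors that lie in the HOXA, HOXB, HOXC and HOXD clusters. The members described here are all genes whose symbol is Hox, a cluster letter and a number, which gave 39 of the 23366 genes in the count tables, 11 in HOXA, 10 in HOXB, 9 in HOXC and 9 in HOXD. Small intestine epithelium was taken from mouse embryos at embryonic day 13.5 and sorted for the surface protein EpCAM, with 500 cells in a library. The 3 mutant libraries carried Shh-cre-egfp with Tcf7l1 lox/lox, and the 3 control libraries were wild type. *Tcf7l1* encodes a TCF/LEF factor that binds DNA in the WNT pathway. In the mutant, Cre was driven from the *Shh* locus, which is active in gut epithelium and in other tissues, and Cre removes a *Tcf7l1* exon flanked by loxP sites. No library carried Cre without the floxed allele, so the Cre insertion at *Shh* and the loss of *Tcf7l1* cannot be told apart.

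Genes of a HOX cluster are numbered by paralogue group, from group 1 at the anterior end of the series to group 13 at the posterior end. Low numbers are expressed from anterior levels of the embryo onward and high numbers only further back, so the set of HOX genes a tissue expresses is used as a record of its position along the body axis. HOX proteins bind DNA together with TALE homeodomain proteins of the PBX, MEIS and PKNOX families. In the gut, the mesenchyme expresses HOX genes strongly, and CDX proteins, which belong to the related ParaHox family, help to set posterior HOX expression.

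The targeted gene had 508, 508 and 383 reads in wild type libraries 1, 2 and 3 and 40, 31 and 66 in mutant libraries 1, 2 and 3, and *Shh* had 439, 582 and 515 against 179, 210 and 166. Total counts were 18216537 to 20397278 in a library. *Xist*, which is expressed from the inactive X chromosome of female cells, had 229 to 424 reads in the mutant libraries and 0 in each wild type library, so a sex-linked difference cannot be told apart from genotype. The epithelial surface gene *Epcam* had 51446 to 60192 reads in the 6 libraries.

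Sequence upstream of the transcription start was taken from RefSeq (GRCm38.p6), which gave a window for 22 of the 39 members. The 250 bases upstream are printed for *Hoxa5*, a tested member whose wild type and mutant libraries did not overlap, and for *Evx1*, the homeobox gene beside the HOXA cluster that had no read in the mutant libraries. Capitals mark a match to TTTATNG, a CDX motif, here on the reverse strand.
Hoxa5, chr6:52204588-52204837, minus strand: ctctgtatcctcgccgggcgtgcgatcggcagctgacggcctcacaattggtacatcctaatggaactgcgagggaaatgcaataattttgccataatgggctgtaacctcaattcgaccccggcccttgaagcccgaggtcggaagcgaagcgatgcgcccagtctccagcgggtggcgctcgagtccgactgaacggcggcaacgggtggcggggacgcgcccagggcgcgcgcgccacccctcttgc
Evx1, chr6:52313248-52313497, plus strand: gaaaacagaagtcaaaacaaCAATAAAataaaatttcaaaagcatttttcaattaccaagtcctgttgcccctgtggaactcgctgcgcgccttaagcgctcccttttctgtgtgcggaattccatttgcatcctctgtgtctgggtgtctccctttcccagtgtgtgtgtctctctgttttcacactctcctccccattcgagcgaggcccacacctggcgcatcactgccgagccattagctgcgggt
The TCF/LEF motifs CTTTGAA and CTTTGAT were searched on both strands and differ only in the last base. CTTTGAA lay in 4.46% of 32851 such windows and CTTTGAT in 3.21%, and among the matched members they were found upstream of *Hoxd12* and *Hoxd8*, which had no read here. TTTATNG lay in 9.81% of the windows and, among the matched members, upstream of *Hoxb8* and *Hoxd4*. These matches describe letters in a window and are not binding sites.

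In the wild type epithelium, HOX expression was low and came mainly from the anterior and middle genes of HOXA and HOXB. Of the 39 members, 26 had at least 1 read in some library, 10 of 11 in HOXA, 10 of 10 in HOXB, 4 of 9 in HOXC and 2 of 9 in HOXD. The 13 members with no read in any library were *Hoxa6*, *Hoxc6*, *Hoxc10*, *Hoxc11*, *Hoxc12*, *Hoxc13*, *Hoxd1*, *Hoxd8*, *Hoxd9*, *Hoxd10*, *Hoxd11*, *Hoxd12* and *Hoxd13*. A count of 0 over the 3 wild type libraries allows up to 3 reads, or 0.0499 CPM (counts scaled to the library total), and over the mutant libraries 0.0527 CPM. Such limits, and the counting intervals given below, cover counting error only, since PCR copies were not marked with molecular identifiers.

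Levels are compared between genes as TMM-normalized counts per kilobase of the longest coding transcript. *Hoxb2* had the highest wild type level of the members, 46.6 ± 3.67 (SD, n = 3), at the 46.9th percentile of the 15969 genes with a length and a read. *Hoxb7* followed with 33.9 ± 7.80, and its 3 wild type libraries lay below those of *Hoxb2* and above those of every other member. *Hoxa5* had a level of 19.9 ± 1.45. Below it, *Hoxa3* at 12.5 ± 2.42, *Hoxa2* at 11.4 ± 5.85, *Hoxa4* at 11.0 ± 3.47, *Hoxb3* at 9.36 ± 2.48 and *Hoxb6* at 8.48 ± 2.31 could not be ordered beyond the spread between libraries.

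Summed over each cluster, HOXB gave 55.0% ± 9.83 of the wild type HOX level per kilobase and HOXA 39.9% ± 5.47 (SD, n = 3), while HOXC gave 3.79% ± 3.84 and HOXD 1.30% ± 0.68. By paralogue group, groups 1 to 3 gave 49.7% ± 1.96 of the wild type level, groups 4 to 8 gave 45.5% ± 3.16 and groups 9 to 13 gave 4.82% ± 1.95.

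**Figure D1:**
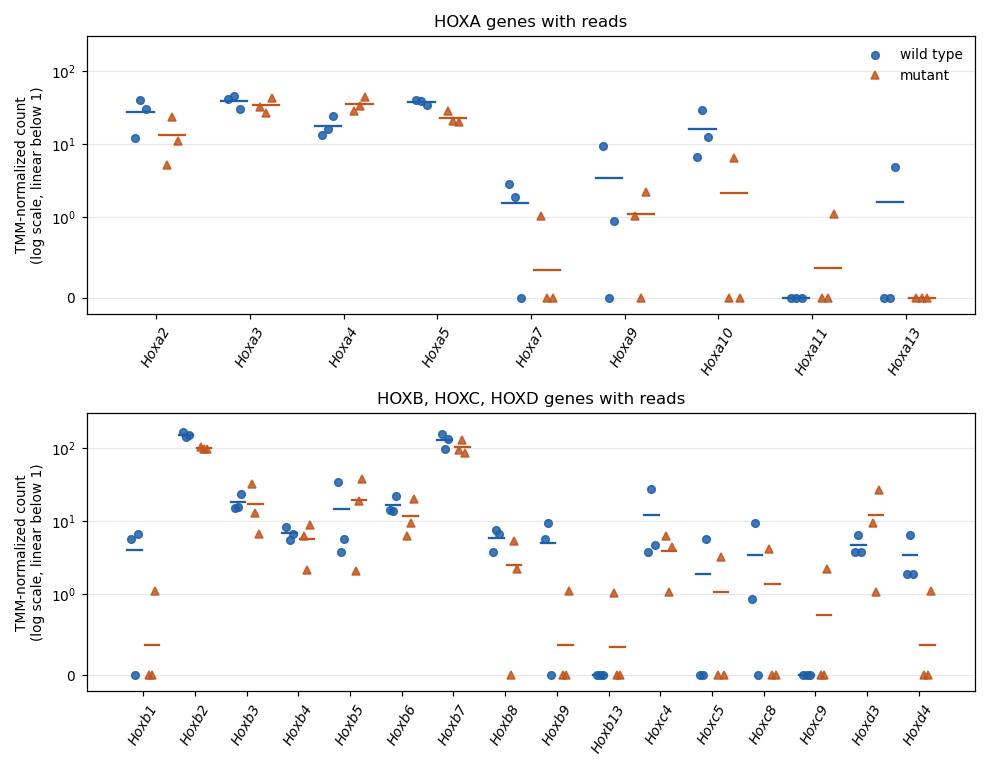
TMM-normalized counts (vertical axis, log scale that is linear below 1) of 25 of the 26 HOX genes with a read, by gene along the horizontal axis, with a point for each library and a line at the mean of the 3 libraries. *Hoxb2* and *Hoxb7* stand above the other members, and *Hoxa10* has reads in all 3 wild type libraries and in 1 mutant library.

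No HOX gene passed the call for a difference in the mutant, for which a gene needed a normalized count averaging 50 or more, a log2 fold change of 0.5 or more in either direction, and an adjusted p below 0.01. Of the 39 members, 10 passed the filter on low counts and were tested, 5 in HOXA and 5 in HOXB, and 0 were called higher and 0 lower by edgeR. Across all 12501 genes tested, 2.78% were called higher and 5.83% lower (348 and 729 genes, but 762 and 375 with a correction for gene length, and 200 and 957 scaled by library size alone). Only *Hoxb2* had an unadjusted p under 0.05 among the tested members, against 40.3% of all tested genes. DESeq2 also called 0 members, with 2 at an unadjusted p under 0.05 (*Hoxb2* and *Hoxa10*). The mean count was at least 50 for 2 tested members, *Hoxb2* and *Hoxb7*, so the other 8 could not be called whatever their change. Standard errors of the members' log2 fold changes ran from 0.23 to 0.89 against a median of 0.153 over all tested genes.

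The fitted log2 fold change was below 0 for 8 of the 10 tested members (*Hoxa3* was above 0 with a correction for gene length) and above 0 for 2, with a median of -0.41 against -0.04 over all tested genes, of which 54.3% were below 0. The 3 libraries of each genotype did not overlap for *Hoxa5* and *Hoxb2*, lower in the mutant, and for *Hoxa4*, higher. Over all tested genes, 22.2% did not overlap with the mutant lower and 20.8% with the mutant higher. Because the RNA came from sorted cells measured together, fewer cells expressing a gene and less RNA per cell cannot be told apart.

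Among the anterior genes, *Hoxb2*, known for its part in hindbrain segments, had 177, 152 and 162 reads in wild type libraries 1, 2 and 3 and 101, 91 and 88 in the mutant ones. All 3 mutant libraries were below all 3 wild type libraries. The log2 fold change was -0.63 (SE 0.23, 95% confidence interval -1.11 to -0.14, adjusted p = 0.0493), and the adjusted p ran from 0.0254 to 0.175 over the alternative settings. An antisense gene that was absent from the counted genes, *Hoxb3os*, covers 49.4% of the exon bases of *Hoxb2*, and whether reads were counted by strand is not given in the sources used here, so reads of the pair cannot be told apart.

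*Hoxa2*, a regulator of the second branchial arch, had 13, 43 and 32 reads against 5, 22 and 10, a log2 fold change of -1.05 (SE 0.67, adjusted p = 0.259). The genotypes overlapped for *Hoxa2*, and 11.0% of its exon bases are shared with *Hoxa3*.

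*Hoxa3*, which acts in pharyngeal organs, had 44, 48 and 32 wild type and 31, 25 and 38 mutant reads. *Hoxb3* had 16, 17 and 25 wild type reads and 31, 12 and 6 mutant reads, the highest and the lowest of the 6 values both being mutant. Their log2 fold changes were -0.21 (SE 0.45) and -0.08 (SE 0.66), so neither direction can be read. *Hoxb3os* covers 37.9% of the exon bases of *Hoxb3*, with the same doubt about strand as for *Hoxb2*. *Hoxb1*, of group 1, had 6, 0 and 7 reads against 0, 0 and 1 and was not tested.

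Summed over groups 1 to 3, the level per kilobase was 95.2, 107 and 101 in the wild type libraries and 68.7, 61.4 and 74.3 in the mutant ones, 67.5% of the wild type mean. The genotypes did not overlap in this sum, and leaving out each library in turn gave 64.4% to 70.8%. The sum has no test, and *Hoxb2* is the largest part of it.

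In the middle groups, *Hoxa4* went the other way from most members, with 14, 17 and 25 wild type and 27, 31 and 40 mutant reads. All 3 mutant libraries were above all wild type libraries, yet the log2 fold change of 0.99 (SE 0.53, 95% confidence interval -0.13 to 2.11) did not pass the test (adjusted p = 0.172). *Hoxa5*, needed for lung and gut patterning, had 42, 41 and 36 reads against 27, 19 and 18, a log2 fold change of -0.71 (SE 0.48, adjusted p = 0.283). These neighbouring genes thus had fitted changes of opposite sign, and the difference between them was not tested.

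*Hoxb7*, the second highest member, had 169, 106 and 139 wild type and 91, 120 and 77 mutant reads, with overlap between the genotypes. Its log2 fold change was -0.34 (SE 0.27, 95% confidence interval -0.91 to 0.23, adjusted p = 0.368), and 26.2% of its exon bases are shared with *Hoxb8*. *Hoxb6* had 15, 15 and 23 reads against 6, 9 and 18, a log2 fold change of -0.48 (SE 0.66). *Hoxb5* varied most among the tested members, with 37, 4 and 6 wild type reads and 2, 18 and 34 mutant reads, so that each genotype held both low and high libraries and the log2 fold change of 0.41 had an SE of 0.89.

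The remaining middle genes were not tested. *Hoxb4* had 9, 6 and 7 reads against 6, 2 and 8, *Hoxb8* had 4, 8 and 7 against 0, 5 and 2, and *Hoxa7* had 3, 2 and 0 against 1, 0 and 0. In HOXC, *Hoxc4* had 4, 30 and 5 wild type reads and 6, 1 and 4 mutant reads, *Hoxc5* had 0, 0 and 6 against 0, 3 and 0, and *Hoxc8* had 1, 10 and 0 against 4, 0 and 0. The wild type reads of *Hoxc4* thus came mostly from library 2. In HOXD, *Hoxd4* had 2, 7 and 2 reads against 0, 0 and 1, and *Hoxd3*, of group 3, had 4, 7 and 4 against 9, 1 and 24. *Hoxd3* and *Hoxd4* share exon bases, 29.8% of the first and 67.4% of the second.

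Over groups 4 to 8 the summed level per kilobase was 97.8, 89.4 and 89.8 in the wild type libraries and 67.7, 80.7 and 89.6 in the mutant ones, 85.9% of the wild type mean. Mutant library 3 lay within the wild type range, so the genotypes overlapped. The difference between the classes was not tested.

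The posterior genes had few reads in either genotype. *Hoxa10*, which patterns the lower body and the reproductive tract, had 7, 31 and 13 wild type reads and 0, 6 and 0 mutant reads, so that all 6 mutant reads came from mutant library 2. The mutant level was 13.4% of the wild type level (exact counting interval 4.69% to 31.1%). It was 22.5% without wild type library 2, 20.04% without mutant library 1 or 3, and 0% without mutant library 2. *Hoxa10* had too few reads for the filter, and in an edgeR fit with no filter its log2 fold change was -2.83 (SE 1.22, adjusted p = 0.0895).

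Of the other posterior members, *Hoxa9* had 10, 0 and 1 reads against 1, 0 and 2, *Hoxb9* had 6, 10 and 0 against 0, 0 and 1, and *Hoxa13* had 0, 0 and 5 against 0 in each mutant library. *Hoxa11* and *Hoxb13* had a single read each and *Hoxc9* had 2, all in mutant libraries. These counts are too few to order the genotypes gene by gene.

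Summed over groups 9 to 13, the raw reads were 23, 41 and 19 in the wild type and 2, 6 and 6 in the mutant libraries. Per kilobase the sum was 7.65, 14.9 and 7.10 against 0.79, 2.49 and 2.46, with no overlap, and the mutant mean was 19.4% of wild type, with 16.4% to 25.9% when each library was left out in turn. Without *Hoxa10* the reads were 16, 10 and 6 against 2, 0 and 6, and the genotypes overlapped. This sum also has no test.

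**Figure D2:**
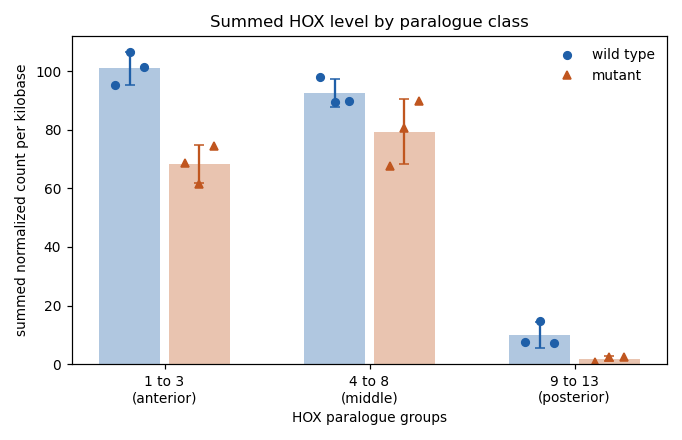
Summed normalized count per kilobase (vertical axis) of HOX paralogue groups 1 to 3, 4 to 8 and 9 to 13 (horizontal axis), with bars at the mean of 3 libraries, error bars of 1 SD and a point for each library. The mutant mean is 67.5%, 85.9% and 19.4% of the wild type mean in these classes, and the third class is low in both genotypes.

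The summed level of all HOX genes per kilobase was 203 ± 6.70 in the wild type and 149 ± 15.2 in the mutant libraries (SD, n = 3), 73.5% of the wild type mean. Sums per kilobase do not carry the correction for gene length used as an alternative fit. With that correction, the log2 fold changes of the highest members, *Hoxb2* and *Hoxb7*, were -0.39 and -0.07. HOXA was at 75.0% and HOXB at 73.2%, a similar fraction in both clusters. The genotypes overlapped in the HOXA sum (69.6, 96.1 and 78.4 against 51.2, 59.1 and 72.8). They did not overlap in the HOXB sum (127, 93.1 and 114 against 78.6, 83.5 and 82.6). HOXC was at 39.6% and HOXD at 136%, but these rest on few reads. HOXC was at 97.8% without wild type library 2, and HOXD was at 55.1% without mutant library 3.

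As a summary over the whole small intestine, the mean paralogue number was weighted by each member's level per kilobase. The sorted cells were not split by region, so this number averages anterior and posterior epithelium. The authors saw a *Tcf7l1* reporter in the anterior but not the posterior small intestine at this stage. A shift in the anterior part alone could thus be masked by posterior cells. It was 4.19, 4.09 and 4.04 in the wild type libraries and 3.98, 4.26 and 3.93 in the mutant ones, with means of 4.10 ± 0.08 and 4.05 ± 0.18. The difference of -0.05 was smaller than the spread between libraries, and it was 0.01 without mutant library 3 and -0.15 without mutant library 2. Within HOXA the mean number was 3.78 ± 0.03 in wild type and 3.55 ± 0.23 in mutant, and within HOXB 4.30 ± 0.10 and 4.43 ± 0.33. The share of groups 9 to 13 was 1.26% ± 0.60 of the mutant HOX level, against 4.82% ± 1.95 in wild type, and that of groups 4 to 8 was 53.0% ± 3.33 against 45.5% ± 3.16.

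Several TALE cofactors fell in the mutant. Of 9 TALE genes, 8 were tested, 4 were called lower and 0 higher, and the median log2 fold change was -0.60. The shares over all tested genes were 5.83% called lower and 2.78% higher, with a median of -0.04. *Meis2*, a cofactor for many HOX proteins, had 254, 296 and 274 wild type reads and 33, 39 and 8 mutant reads, a log2 fold change of -3.18 (SE 0.36, adjusted p = 1.1e-05).

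*Meis1* had 794, 698 and 761 wild type and 416, 415 and 457 mutant reads, a log2 fold change of -0.62 (SE 0.13, adjusted p = 0.0025). *Meis3* had 860, 799 and 650 against 438, 407 and 404, a log2 fold change of -0.70 (SE 0.13, adjusted p = 0.0013). The call of *Meis2* held in every alternative fit. *Meis1* lost its call without wild type library 1 or mutant library 1 or 2 (adjusted p = 0.0160, 0.0152 and 0.0129) and with a correction for gene length (0.0334), and *Meis3* without wild type library 1 (0.0123).

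Of the 6 ParaHox genes, 3 were tested and 2 called lower, against 5.83% called lower over all tested genes. *Pdx1*, needed for pancreas and duodenum, had 230, 236 and 201 wild type and 45, 40 and 52 mutant reads, a log2 fold change of -2.09 (SE 0.24, adjusted p = 1.8e-05). *Cdx2*, which gives intestinal epithelium its identity, had 810, 1028 and 704 reads against 495, 396 and 498, a log2 fold change of -0.68 (SE 0.15, adjusted p = 0.0035). *Cdx2* was not called without wild type library 1 or 2 (adjusted p = 0.0114 and 0.0287), without mutant library 1 or 2 (0.0127 and 0.0216) or with a correction for gene length (0.0127). *Cdx1* was tested and not called, *Cdx4* had 5 reads in 1 wild type library, and *Gsx1* and *Gsx2* had none.

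**Figure D3:**
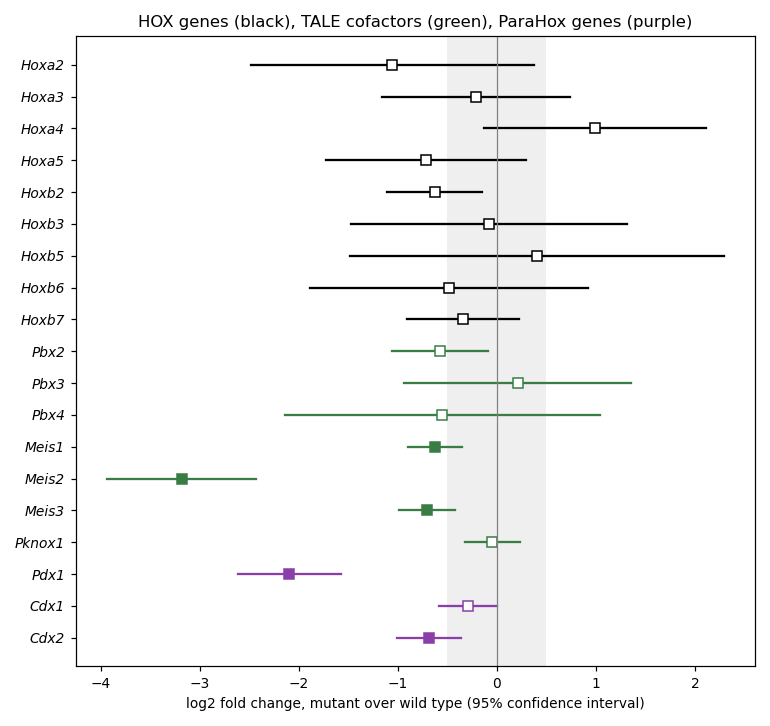
Log2 fold change of mutant over wild type (horizontal axis) with its 95% confidence interval for 9 of the 10 tested HOX genes (black), 7 of the 8 tested TALE genes (green) and 3 ParaHox genes (purple), with filled squares for genes called lower and open squares for genes not called. The grey band spans the threshold of 0.5 on either side of 0. No HOX square is filled, and the interval of *Meis2* lies far to the left of 0.

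Among 19 genes that control HOX expression or carry retinoic acid signals, 18 were tested, 3 were called lower and 0 higher, with a median log2 fold change of -0.19. For all tested genes, 5.83% were called lower and 2.78% higher, and the median was -0.04. Fitted values were below 0 for 12 of the 18 and above 0 for 6. Among the 6, *Gmnn* was at 0.47 (adjusted p = 0.0032), *Eed* at 0.34 (0.0034) and *Suz12* at 0.31 (0.0246), all under the minimum of 0.5. *Rara*, a retinoic acid receptor, had 1050, 1193 and 994 wild type and 548, 573 and 528 mutant reads (log2 fold change -0.79, SE 0.11, adjusted p = 1.4e-04). *Rarg*, another such receptor, had 140, 180 and 116 against 55, 74 and 33 (-1.25, SE 0.32, adjusted p = 0.0083). *Cbx2*, a Polycomb protein that keeps HOX genes silent, had 494, 506 and 418 against 287, 194 and 186 (-0.91, SE 0.18, adjusted p = 0.0017). The call of *Rara* held in every alternative fit. *Rarg* was not called without wild type library 1 or 2 or mutant library 1 or 3 (0.0265, 0.0522, 0.0263 and 0.0344) or with the length correction (0.0241), and *Cbx2* not without wild type library 1 or mutant library 2 or 3 (0.0102, 0.0107 and 0.0102).

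The genes around the clusters differed in behaviour. *Evx1*, an even-skipped homeobox gene 52618 bases beyond the posterior end of HOXA (chr6:52263492-52268372 in mm9), had 32, 15 and 22 wild type reads and 0 in every mutant library. With a floor of 3 reads over the mutant group and the wild type reads taken as exact, it was 20.2-fold lower in the mutant. On the same terms it was 13.3-fold, 13.5-fold and 13.7-fold lower without mutant library 1, 2 or 3. The exact counting interval, which allows for error in both groups, put the mutant level of *Evx1* at 0% to 6.24% of the wild type level. Its adjusted p was 0.0012, and it kept that direction and an adjusted p of 1.0e-04 to 0.0091 in all 12 alternatives that could be fitted, but its mean count of 10.8 was under the minimum of 50 and it was not called. *Evx2*, beside HOXD, had no read in any library.

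Of the other tested flanking genes, *Calcoco1*, 198925 bases from HOXC, was called lower, with 483, 480 and 394 wild type and 181, 171 and 152 mutant reads (log2 fold change -1.24, SE 0.17, adjusted p = 6.6e-05). *Lnp* and *Mtx2*, the nearest tested genes on either side of HOXD, had log2 fold changes of 0.47 (adjusted p = 0.0062) and 0.37 (adjusted p = 0.0042), under the minimum of 0.5. *Lnp* was called higher without wild type library 3 (0.53) or mutant library 2 (0.54) and with the length correction (0.70), as was *Mtx2* with that correction (0.57). *Smug1* had a log2 fold change of -0.41 (adjusted p = 0.0766). *Snx10*, *Skap2* and *Hnrnpa3*, and *2700086A05Rik* within HOXA, were between -0.03 and 0.09 and not called.

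**Figure D4:**
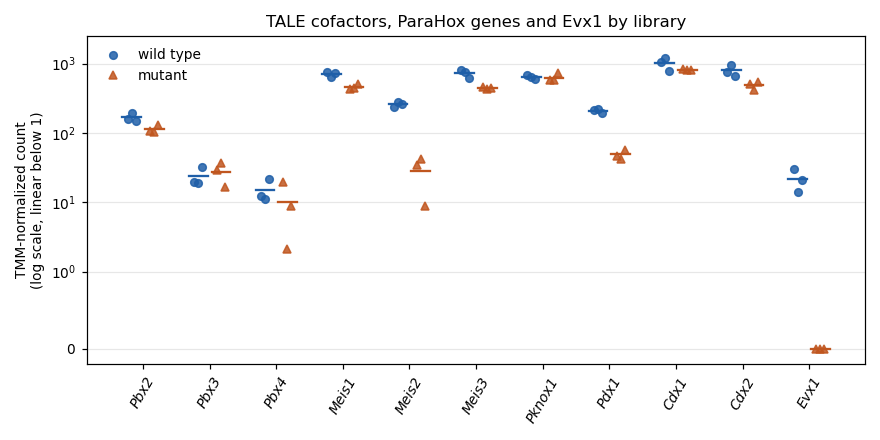
TMM-normalized counts (vertical axis, log scale that is linear below 1) of 7 TALE genes, 3 ParaHox genes and *Evx1* (horizontal axis), with a point for each library and a line at the mean of 3. *Meis2* and *Pdx1* separate the genotypes widely, and the 3 mutant points of *Evx1* are at 0.

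Regional gut genes were compared as a second record of position. Of 5 anterior gut genes 2 were tested, and *Onecut2*, a duodenal factor, was called lower, with 2371, 2171 and 1846 wild type and 1149, 1294 and 963 mutant reads (log2 fold change -0.72, SE 0.11, adjusted p = 2.5e-04). *Sox2*, a foregut and stomach gene that was not tested, had 12, 7 and 11 reads against 0 in each mutant library, and was named after its values were seen. Of 6 posterior gut genes 2 were tested and 0 called, and both had fitted values below 0.

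HOX RNA can also come from other cells in the sort. Of 18 mesenchymal markers 9 were tested and 0 called, and 7 of the 9 had fitted values below 0 (median -0.97 on the log2 scale). Of these 9, only *Vim*, *Acta2* and *Tagln* had a mean normalized count of 50 or more, so the other 6 could not be called whatever their change. The summed reads of all 18 were 1555 to 2013 per wild type library and 1127 to 1636 per mutant library. Of these, *Vim* gave 1250 to 1490 and 811 to 881. Its log2 fold change was -0.46 (SE 0.11, adjusted p = 0.0049), under the minimum of 0.5, and the genotypes did not overlap for *Vim*. Without *Vim* the sums were 305 to 552 and 246 to 766 reads. The normalized sums of all 18 were 1478 to 1877 in the wild type and 1167 to 1810 in the mutant, with overlap. *Acta2* and *Tagln* were the 2 tested markers with fitted values above 0. Without them the normalized sums were 1349 to 1689 in the wild type and 1005 to 1056 in the mutant. Those 2 genes were left out with their direction known, so the lack of overlap in that sum is not a test. None of the 18 was at 0 in all libraries. *Barx1*, a stomach mesenchyme gene, had 27, 70 and 19 reads against 4, 0 and 0 (log2 fold change -4.56, adjusted p = 0.0029, mean normalized count 18.8). *Pdgfra* had 23, 6 and 21 against 0, 0 and 1. *Acta2* and *Tagln*, smooth muscle genes, went the other way, with log2 fold changes of 1.52 (adjusted p = 0.0142) and 1.31 (adjusted p = 0.0261). *Acta2* had 74, 113 and 92 reads against 92, 161 and 442, and *Tagln* had 64, 88 and 44 against 64, 118 and 239. Both had their highest values in mutant library 3, and the genotypes overlapped for both. These mesenchymal examples were chosen after their values were seen, and the part of mesenchymal RNA in the HOX differences was not tested.

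Of 7 neural crest markers 4 were tested and 0 called, and their summed reads were 203 to 238 per wild type library and 174 to 346 per mutant library. *Ednrb* had 136 reads in mutant library 3. Of 5 endothelial markers 0 were tested and 3 had no read, with sums of 0 to 13 and 0 to 21. Of 6 blood markers 5 had no read, and *Hbb-y* had 21 to 30 reads per wild type library and 4 to 6 per mutant library. Of 10 epithelial markers all were tested and 3 called lower, against 5.83% of all tested genes. The 3 were *Cdx2*, *Cdh1* (log2 fold change -0.57, adjusted p = 0.0010) and *Krt18* (-0.54, adjusted p = 2.7e-05). Fitted values were below 0 for 6 of the 10 and above 0 for 4. Among the 6, *Krt19* was at -0.49 (adjusted p = 2.8e-05) and *Krt8* at -0.32 (0.0010), not called because both were under the minimum of 0.5. Among the 4, *Epcam* was at 0.25 (adjusted p = 0.0130), *Cldn7* at 0.24 (0.0091) and *Cldn4* at 0.21 (0.0296), not called. *Cdh1* was at -0.45 without wild type library 2, -0.48 without mutant library 2 and -0.29 with the length correction, and *Krt18* at -0.49 without wild type library 3 and -0.50 without mutant library 3, where neither was called. The part of these cell types in the HOX differences was not tested.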

How the data were processed

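The authors sorted EpCAM-positive cells, made cDNA with a SMARTer kit over 15 PCR cycles, and aligned 84-base reads to mm9 with STAR 2.5.2b. Reads with a unique position were assigned to UCSC gene models by featureCounts 1.5.1. The authors deposited the raw counts of each library without normalization, and used DESeq2 1.18.1 with an RPKM minimum of 50 in their own calls. A mean normalized count of 50 is used here instead and is not equivalent. At these total counts an RPKM of 50 is a much higher level. *Hoxb2*, the highest member at 46.6 normalized counts per kilobase in wild type, lay below it, so no HOX gene could meet that minimum. The strand setting, and whether libraries came from separate embryos, are not given in the sources used here, so p-values measure the spread between libraries, which may be technical.

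Total counts were 18216537 to 20397278. Counts were tested in edgeR 4.0.16 (R 4.3.3) with filterByExpr, TMM, a quasi-likelihood test without covariates and Benjamini-Hochberg adjustment over 12501 genes, and checked on simulated data. DESeq2 1.42.0, other scalings, filters and call thresholds, a replicate block, a length correction and leaving out each library were alternatives. Lengths, positions and overlaps came from GENCODE on mm9. The members and lists were chosen with earlier results of these data known. Tested members were named with values, and of the lists the called genes, except for a few genes that are not reported here. Other named list genes were chosen after their values were seen.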

Additional observations from a re-analysis of the deposited data

How the results depend on the processing

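No HOX gene was called higher in any of 17 alternatives, and the number called lower was 0 in 16 and 1, *Hoxb2*, at an adjusted p under 0.05. Genes called higher over the whole table (348 as reported) were 200 when only library size was scaled (against 957 lower), 762 with the length correction, 85 at a minimum log2 fold change of 1, 902 with no minimum fold, and 260 to 516 when each library was left out. Genes called lower (729) were 375 with the length correction (against 762 higher), 284 at a minimum log2 fold change of 1, 1178 at an adjusted p under 0.05, and 405 to 867 when each library was left out, with 405 without wild type library 1, 406 without wild type library 2 and 463 without mutant library 2. Scaling by library size alone moved the median log2 fold change of all genes by -0.11 and the length correction by 0.14. Of the 10 tested members, 7 kept their direction in every alternative. *Hoxa3* was at 0.010 with the length correction, *Hoxb3* at 0.17 without wild type library 3, 0.10 without mutant library 2 and 0.30 without mutant library 3 (range -0.89 to 0.30 with each library left out), and *Hoxb5* at -0.05 without wild type library 2 and -0.47 without mutant library 3 (range -0.47 to 2.02). Near the clusters, *2700086A05Rik* was at -0.015, *Snx10* at -0.024 and *Skap2* at -0.078 with library size only, and *Hnrnpa3* at 0.23 with the length correction. With each library left out, *2700086A05Rik* ranged from -0.35 (without mutant library 2) to 0.33, *Skap2* from -0.030 (without wild type library 1) to 0.11, and *Hnrnpa3* from -0.099 to 0.023 (above 0 without wild type library 1 or mutant library 1). The cause of these changes was not tested. The difference in mean paralogue number was -0.15 to 0.02, including 2 alternatives chosen after seeing the data. Same-numbered libraries did not deviate together (correlations 0.01, -0.04 and -0.02). With the replicate number as a block, 0 HOX genes, 339 genes higher and 691 lower were called. Counts under about 50 per library limited what could be seen of single HOX genes.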
